A study of Mus musculus with 3 samples.

Results

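The kinase signalling families described here are the mouse genes whose name in the deposited lists starts with Map2k, Map3k, Map4k, Mapk, Mark and a digit, Camk, Stk, Akt and a digit, Pik3, Rps6k, Prka, Prkc, Csnk or Dyrk. They make 94 of the 8350 gene names in the 3 lists, and hold 595 of the 40298 distinct 5-methylcytosine (m5C) sites. The assay was RNA bisulfite sequencing: bisulfite turns unmethylated cytosine into a base read as T and spares m5C, and the m5C level of a cytosine is the percentage of its reads that kept the C. The lists come from 1 library each of oocytes at the germinal vesicle (GV) stage, before meiosis resumes, of metaphase II (MII) oocytes, which have matured, and of 1-cell embryos. All were from wild-type C57BL/6J females of 7 to 8 weeks. The GV oocytes were taken 48 h after an injection of pregnant mare serum gonadotrophin (PMSG) of 10 IU. The MII oocytes were taken 12 h after 5 IU of human chorionic gonadotrophin (hCG), itself given 44 to 48 h after 10 IU of PMSG. The 1-cell embryos, about 200 of them, came from females mated with C57BL/6J males, 24 h after 5 IU of hCG that followed 5 IU of PMSG by 44 to 48 h. These ages and doses are those of the labels, and the methods of the study give a wider age range and another hCG dose. The stages also differed in how the labels describe bisulfite conversion, so stage and library preparation cannot be told apart. With 1 library a stage there is no replicate check, and every test below compares the reads of 2 libraries, not the conditions.

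Protein kinases move phosphate onto other proteins and are switched by growth factors, second messengers and stress. In the mitogen-activated protein kinase (MAPK) cascades, Map4k and Map3k kinases activate Map2k kinases, which activate Mapk kinases. In the mouse oocyte the Mos and Map2k1 chain becomes active during maturation and helps to hold the MII arrest. Phosphoinositide 3-kinase (Pik3 genes) and Akt carry growth signals, cyclic AMP acting through protein kinase A (Prka genes) holds the GV arrest, and calcium acting through the calmodulin kinases (Camk genes) ends the MII arrest at fertilization. Fully grown oocytes make little new RNA, so most mRNA at these stages is stored maternal mRNA. Most m5C in mRNA is placed by the methyltransferases NSUN2 and NSUN6. NSUN2 acts at G-rich sites (Type I), and NSUN6 at CUCNA, where the first C is methylated (Type II). A few genes carry a family name without being kinases. Prkcsh is a subunit of a glucosidase of the endoplasmic reticulum, Camkmt is a methyltransferase of calmodulin, and Mapkbp1, Mapk8ip3, Mapkap1, Akt1s1 and Pik3r1 are partner or regulatory proteins.

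The lists hold called sites alone, each with at least 20 reads, a level of at least 10% and at least 5 unconverted reads. Absence from a list therefore leaves a site's state unknown: it may lack m5C, fall short of a limit or have too few reads. It follows that a fall to under 10% cannot be seen, and that coverage at a site is not a measure of gene expression. Marker genes were looked up to see whether oocyte transcripts were present, which does not tell the stages apart. All 8 oocyte genes looked for (such as Zp3 and Gdf9) had a called site in at least 1 list, with up to 16549 reads. Of 8 cumulus and granulosa cell genes, the cells that surround the oocyte, 2 had a called site, in the MII oocytes alone, with 96 reads at Amh and 49 reads at Cyp19a1, and the part of such cells in the results was not tested.

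The sites on which the results turn are shown first, as the RNA-sense sequence in DNA letters, 5′ to 3′, read from GENCODE M21 transcripts on GRCm38. Each window has 10 bases before the site and 14 after it. Capitals mark the methylated C and the 4 bases after it, where Type II sites read CTCNA. Every other site is counted as Type I, a class that is G-rich on average but also holds sites with no G there. The first set is Map2k2, which encodes MEK2, a direct activator of Mapk3, because its 6 sites called at every stage split into flat and steeply rising ones. All 6 lie in coding sequence (CDS) on the + strand, in exons 2, 5, 6, 6, 7 and 7.
Map2k2 chr10:81108837-81108861: aggctaaggtCGGTGagctcaagga
Map2k2 chr10:81119122-81119146: tggcctacctCCGAGagaagcacca
Map2k2 chr10:81119257-81119281: atgtgaagccCTCCAacatcctggt
Map2k2 chr10:81119281-81119305: tgaactctcgCGGGGagattaagct
Map2k2 chr10:81119560-81119584: agctggccatCGGGAggtatcccat
Map2k2 chr10:81119638-81119662: acggggcagaCGGAGaaccccatag

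The second set holds deeply covered sites that were high or rose. Mark2 lies in the 3′ untranslated region (UTR), on the - strand. Pik3cd is a CDS site at position 149654030 of chromosome 4, on the - strand, and its window crosses an exon junction. Mapk3 and Prkar1a are CDS sites on the + strand. The Stk32c sites are in CDS on the - strand, and the window of the first, at position 139119022 of chromosome 7, also crosses a junction. Akt1s1 is a 3′ UTR site on the + strand.
Mark2 chr19:7277037-7277061: caccagtggaCTTGGctgcttgggc
Pik3cd exon 18: tctttaagaaCGGGGatgacctccg
Mapk3 chr7:126764763-126764787: atgacctcccCAAGGagcggctgaa
Prkar1a chr11:109665931-109665955: gacagaagatCGTGGtgcaaggaga
Stk32c exon 10: agacagttccCAGTCggagaatgac
Stk32c chr7:139125148-139125172: ggagatcctaCAGGAaatcgagcat
Akt1s1 chr7:44854748-44854772: ccttggcctgCGAGAggccactgcc

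The third set holds sites that fell. The Akt1 site is in CDS at position 112659551 of chromosome 12, on the - strand, with a window across a junction. The Mapk1ip1l site is in the 3′ UTR, on the + strand.
Akt1 exon 4: gcctgaggagCGGGAagaatgggcc
Mapk1ip1l chr14:47320376-47320400: agaaccccagCAGGGcttttggctg

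The last set holds Type II sites beside the one of Map2k2 above, so that the CTCNA motif can be read against the G-rich sites. The Mark2 site is in CDS at position 7283039 of chromosome 19, on the - strand, and its window crosses a junction. The Stk35 site is in the 3′ UTR and both Mapkbp1 sites are in CDS, on the + strand.
Mark2 exon 13: ctcctgccccCTCCAcgaacagcgt
Stk35 chr2:129828879-129828903: ggtgatcaacCTCCAtgtcactgtt
Mapkbp1 chr2:120016845-120016869: gcctggagtaCTCTAagccagacac
Mapkbp1 chr2:120023120-120023144: ggtgccactcCTCCAggagcacccc

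The kinase families carried more called sites at each later stage, in a similar number of genes. There were 215 sites in 72 genes in GV oocytes, 287 sites in 81 genes in MII oocytes and 397 sites in 78 genes in 1-cell embryos. The exact Poisson 95% intervals of these site counts, 187 to 246, 255 to 322 and 359 to 438, do not overlap. They cover counting error only, as do all intervals here. The lists as a whole grew too, from 15910 to 20694 and 24996 sites, and the families held 1.35%, 1.39% and 1.59% of them. The embryo sites were shallower than the oocyte sites, in the families and over all genes. Median coverage of a family site was 154 reads in GV oocytes, 139 in MII oocytes and 69 in embryos, against 121, 107 and 58 over all genes. The share with under 50 reads was 17.2%, 20.9% and 35.0%, against 20.3%, 22.9% and 41.0%. Reads at family sites made up 1.6%, 1.62% and 1.75% of all reads at called sites, of which the lists hold 4475058, 5285011 and 2616279. Counted with at least 100 reads alone, the sites numbered 131, 165 and 147, so that the last increase turned into a decrease. Depth fell as the number of sites rose.

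The median level of a called family site was 19.7% (order-statistic 95% interval 17.6 to 21.9) in GV oocytes, 20.0% (18.5 to 21.4) in MII oocytes and 21.7% (20.2 to 23.5) in embryos. Over all genes it was 19.5%, 19.8% and 23.8%, so the family median lay below that of all genes in the embryo alone. With at least 50 reads a site, the embryo median was 18.1%. A level of 50% or more was found at 23, 31 and 55 family sites, or 10.7%, 10.8% and 13.9%, against 11.0%, 11.9% and 16.7% over all genes. No oocyte site of the families reached 100%, against 2 GV and 8 MII sites over all genes. In the embryo 5 of 397 family sites did, against 551 of 24996 over all genes. The 5 were in Akt2, Map3k12, Pik3c2b, Pik3cb and Stk11ip. Each was read 20 to 39 times, so that their Wilson 95% intervals reach down to between 83.9% and 91.0%.

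**Figure D1:**
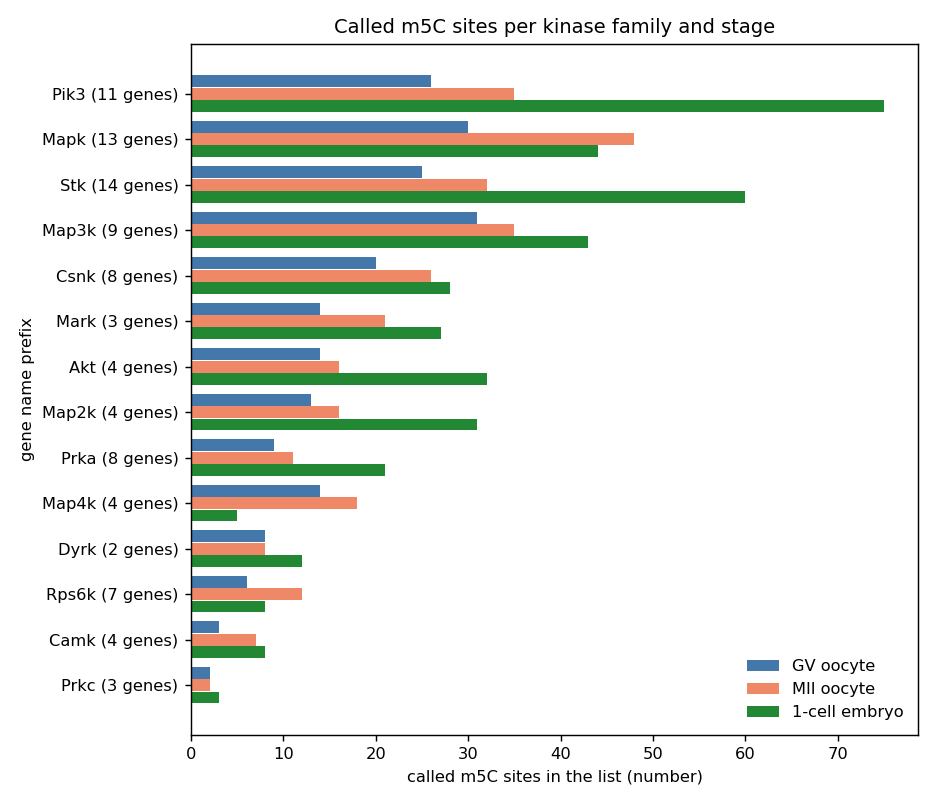
Number of called m5C sites (horizontal axis) per gene name prefix (vertical axis, with the number of genes) in the 1 library of each stage. The Pik3 genes have the longest embryo bar (75 sites) while Map4k drops from 18 sites in MII oocytes to 5 in embryos.

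The growth was uneven between the families, as the plot of sites per family shows. Pik3 genes went from 26 sites in GV oocytes and 35 in MII oocytes to 75 in embryos, Stk genes from 25 and 32 to 60, Akt genes from 14 and 16 to 32, and Map2k genes from 13 and 16 to 31. The Mapk genes had 30, 48 and 44 sites, the Rps6k genes 6, 12 and 8, and the Map4k genes 14, 18 and 5. Single genes moved further than their families. Pik3cd, the delta catalytic subunit of phosphoinositide 3-kinase, had 6, 6 and 20 sites, and Map3k4, an activator of the p38 and JNK branches, had 2, 3 and 15. In the other direction, Map4k4, which signals to JNK, had 6, 7 and 0, Map3k5 (ASK1, the stress-activated kinase) had 8, 8 and 2, and Mapk8ip3, a JNK scaffold, had 5, 12 and 1. These sites had been covered in oocytes. The 7 Map4k4 sites of the MII library had 73 to 233 reads, and the embryo list does not tell whether they were uncovered or unmethylated.

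Of the 94 genes, 59 had a site at every stage, against 4503 of the 8350 genes in all. In 16 genes (17.0%, against 23.3% of all genes) sites were called in oocytes and not in embryos. They include Map4k4, Dyrk1b, Csnk1g1, Csnk1g3, Stk4 (MST1 of the Hippo pathway), Prkacb and the S6 kinases Rps6kb1 and Rps6kb2. In 9 genes (9.57%, against 13.6%) sites were called in embryos alone. They include Mapk10, Prkaa1, Prkaa2, Prkcd, Prkci, Stk3 and Stk11ip, with 1 site each. Prkaa1 and Prkaa2 are the alpha subunits of AMP-activated kinase, and each had a single CDS site, of 28.3% in 46 reads and 32.1% in 53 reads. No site was called in Rps6ka2, Prkar2b or Csnk2b, which had been chosen to be looked up.

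Of the 595 distinct sites, 273 (45.9%, against 41.3% over all genes) were called in the embryo alone, 80 (13.4%, against 14.6%) in the MII oocyte alone and 30 (5.04%, against 6.51%) in the GV oocyte alone. Of the embryo-alone sites, 260 of 273 lay in genes that also had an oocyte site, a share not counted over all genes. The median level of the 273 sites was 18.2% and their median coverage 58 reads, against 19.4% and 56 reads over all genes. A level under 20% was found at 151 of them (55.3%, against 51.4%). The genes with most were Pik3cd with 15, Map3k4 with 14, Pik3c2b and Stk36 with 12 each, and Dyrk1a with 11. Sites shared between stages numbered 180 for GV and MII oocytes (83.7% of the GV sites and 62.7% of the MII sites, against 81.4% and 62.6% over all genes), 119 for MII oocytes and embryos (41.5% and 30.0%, against 38.7% and 32.1%) and 97 for GV oocytes and embryos (45.1% and 24.4%, against 40.7% and 25.9%). At every stage 92 sites were called, 15.5% of the distinct sites against 15.2% over all genes. They were the deeply covered ones, with median coverages of 451, 387 and 115 reads. Such sites of all genes were also deeper than their lists, with 279, 242 and 66 reads.

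The CDS held a smaller share of the kinase family sites than of all called sites, and the UTRs a larger one. The CDS share was 56.3% (Wilson 95% interval 49.6 to 62.7) in GV oocytes, 56.1% (50.3 to 61.7) in MII oocytes and 64.7% (59.9 to 69.3) in embryos, against 68.1%, 68.6% and 73.3%. The 3′ UTR share was 27.4%, 27.9% and 21.4%, against 18.7%, 18.1% and 14.6%. The 5′ UTR share was 16.3%, 16.0% and 13.9%, against 11.2%, 11.3% and 10.3%. These shares were not tested against those of all genes, since sites of 1 gene share a transcript, and the transcript lengths behind them were not matched. Some genes stood at the extremes. All 17 Map3k10, all 17 Map3k4 and all 10 Map2k2 sites were in CDS, while 9 of 10 Map2k4 sites, 7 of 9 Akt1s1 sites and 9 of 13 Mapk8ip3 sites were in the 3′ UTR.

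**Figure D2:**
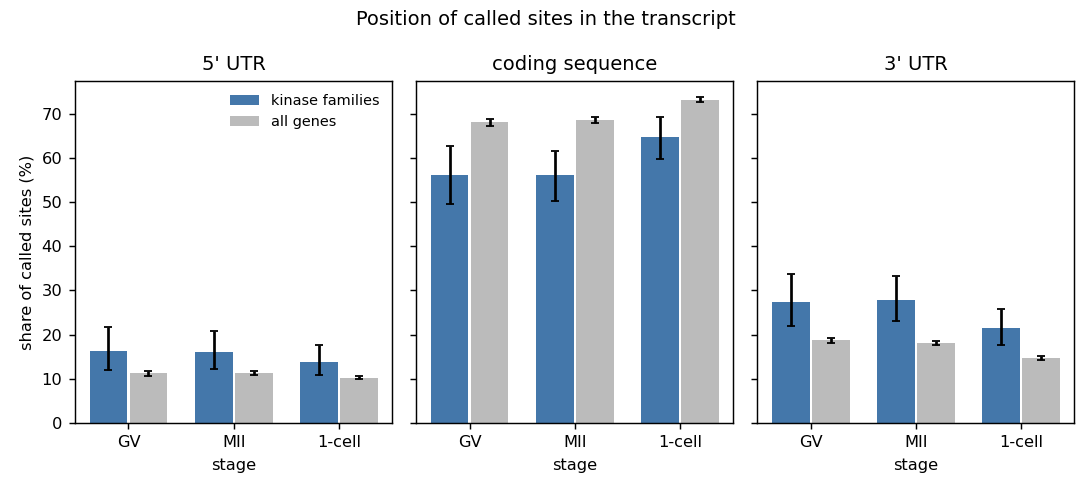
Share of called sites in percent (vertical axis) in the 5′ UTR, CDS and 3′ UTR at each stage (horizontal axis), for the kinase families and all genes, with Wilson 95% intervals of counting error. The family CDS bars are the lower of each pair, at 56.3%, 56.1% and 64.7%.

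In sequence, Type I sites had on average 2.25 G (SD 0.845) in the 4 bases after the site in GV oocytes, 2.23 (SD 0.917) in MII oocytes and 2.03 (SD 0.915) in embryos, against 2.23, 2.21 and 1.98. Type II sites numbered 12, 18 and 12, or 5.58%, 6.27% and 3.02%, against 5.91%, 5.03% and 3.44%. Within codons, 23 of 121 GV sites, 33 of 161 MII sites and 65 of 257 embryo sites were at the second position, that is 19.0%, 20.5% and 25.3%, against 27%, 27% and 26.7%.

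At sites called in both stages of a pair, far more kinase family sites were called higher than lower at the later stage. From GV to MII oocytes, 47 of 180 shared family sites (26.1%) were called higher by Fisher's exact test at an adjusted p under 0.05, against 19.6% of the 12954 shared sites of all genes. Called lower were 2 (1.11%), against 0.965%. From MII oocytes to embryos, 64 of 119 (53.8%) were called higher, against 51.3%, and 2 lower (1.68%), against 2.45%. From GV oocytes to embryos, 67 of 97 (69.1%) were called higher, against 66.1%, and 1 lower (1.03%), against 1.05%. The family shares of higher calls lay within 7 percentage points of those of all genes. The pairs share libraries, so their counts are not independent. Median differences were 4.56, 11.9 and 18.1 percentage points, against 4.87, 12.7 and 19.2. A site below 10% leaves the list, which hides falls. The calls treat reads as separate molecules. With all read numbers divided by 5, 90 of 12954, 593 of 8015 and 1373 of 6478 shared sites of all genes were called, in either direction. Of the shared family sites, 2 of 180, 11 of 119 and 30 of 97 were called, all of them higher. The 2 of the first step were the Pik3cd CDS and Mark2 3′ UTR sites shown above. The 11 of the second step were in Mark2 (2 sites), Map2k1, Map2k2, Map4k5, Akt1s1, Pik3r4, Prkar1a, Csnk1a1, Stk24 and Stk32c, and every other call at these steps was lost. In what follows, an exact adjusted p is that of Fisher's exact test on the undivided reads, adjusted over all shared sites of the pair.

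The coverage of the same sites went the other way, and as for all genes. Scaled to the reads at all called sites of the library, the median log2 ratio was -0.41 from GV to MII oocytes, -0.68 from MII oocytes to embryos and -1.11 from GV oocytes to embryos, against -0.45, -0.64 and -1.06 for all shared sites. With the median of all shared sites set to 0, the family ratios were 0.0355, -0.0443 and -0.0474. The part of depth in the higher levels was not tested.

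**Figure D3:**
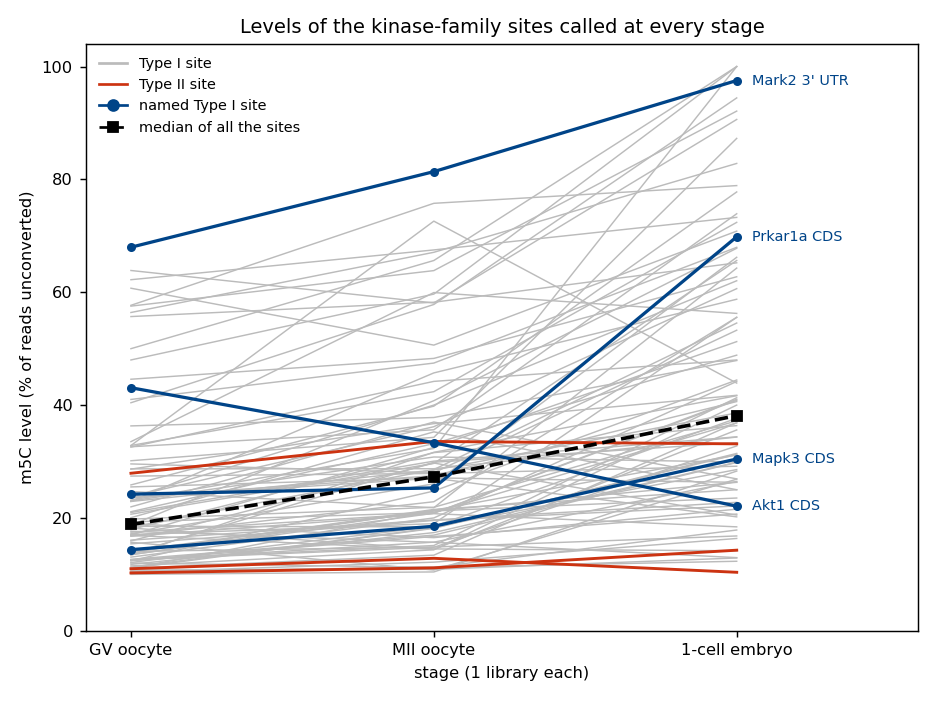
m5C level in percent (vertical axis) of each of the 92 family sites called at all 3 stages (horizontal axis), 1 line a site. Type II sites are red, the dashed line is the median (18.8%, 27.3% and 38.1%), and the Akt1 CDS site runs downward against the others named.

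At the 92 sites called at every stage the median level was 18.8% in GV oocytes, 27.3% in MII oocytes and 38.1% in embryos, against 21.6%, 28.1% and 45.5% for the 6145 such sites of all genes. From GV oocyte to embryo, 40 of the 92 rose by more than 20 percentage points and 11 by more than 40, while 15 differed by less than 5. The span ran from -21.0 points at an Akt1 site to 76.8 points at a Pik3cb site, which had 82 reads in GV oocytes and 21 in embryos. Of the 3 Type II sites among them, in Map2k2, Mark2 and Stk35, none was called changed between GV oocyte and embryo, against 67 higher among 94 shared Type I sites. Over all genes 48.7% of 353 shared Type II sites and 67.1% of 6120 Type I sites were called higher. This difference was not tested in the families, where 3 sites are too few. By region, 15 of 18 shared 3′ UTR sites (83.3%, against 65.5% over all genes), 43 of 64 CDS sites (67.2%, against 67%) and 9 of 15 5′ UTR sites (60%, against 61.7%) were called higher from GV oocyte to embryo.

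The MAPK cascades hold 30 of the genes. At the top, Map4k5, a kinase of the germinal centre family, had a CDS site of 32.6% in 1070 reads in GV oocytes, 35.6% in 814 reads in MII oocytes and 73.9% in 115 reads in embryos. It was called higher at the second step (38.3 points, exact adjusted p = 1.92e-13) and not at the first (exact adjusted p = 0.401). In its 5′ UTR a second site was at 12.0%, 11.2% and 12.3% in 708, 694 and 422 reads, with no call. One transcript thus held both a site that rose and one whose 3 values overlap in their intervals. None of the 13 Map4k sites shared by both oocyte stages was called changed. Over all genes 19.6% of the sites shared at this step were called higher and 0.965% lower, and 13 sites are too few to set against those shares.

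Among the Map3k kinases, Map3k11 (MLK3, an activator of JNK) had the wider change before fertilization. Its site at position 5696039 of chromosome 19 went from 33.5% in 531 reads to 59.9% in 367 reads (exact adjusted p = 6.09e-13), and was at 56.2% in 48 reads in embryos. Map3k10 (MLK2) had 7, 8 and 13 sites, all in CDS. Of its 4 sites called at every stage, the first-exon site rose by 10.2 points from GV to MII oocytes (11.1% to 21.2%, exact adjusted p = 0.035), and that at position 27663441 of chromosome 7 rose by 16.1 points from MII oocyte to embryo (10.8% to 26.9%, exact adjusted p = 0.00011). Map3k4 had 1 site called at every stage, of 12.5%, 16.7% and 20.7% in 465, 377 and 29 reads, which did not pass at any step. Map3k12 (DLK) had a second-exon site of 10.5%, 11.2% and 17.9% in 57, 80 and 56 reads, again with no call. Another site of that exon was called at the second step, from 18.4% and 28.6% to 54.5% in 33 reads (exact adjusted p = 0.0314).

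Map2k2 showed the split for which its sequences are given above. The sites in exons 2, 5 and 6 were low at all stages. In exon 2 the level was 18.2% in 456 reads, 14.5% in 386 reads and 14.2% in 141 reads. The exon 5 site had 14.1%, 14.8% and 16.8%, the Type II site of exon 6 had 10.3%, 11.2% and 14.3%, and its Type I neighbour 23.0%, 30.8% and 29.9%, in 117 to 273 reads. None of these 4 was called changed in any pair, and each differed between GV oocyte and embryo by -4.02 to 6.90 points. Both exon 7 sites rose at the second step. The first went from 24.7% in 243 reads and 21.8% in 243 reads to 64.3% in 42 reads (exact adjusted p = 6.57e-07), and the second from 30.1% in 365 reads and 34.3% in 315 reads to 87.3% in 55 reads (exact adjusted p = 1.83e-12). The first exon 7 site lies 279 bases from the last flat site on the genome and 78 bases from the second. Both rising sites and 2 of the 3 flat Type I sites begin with CGG in the windows above.

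**Figure D4:**
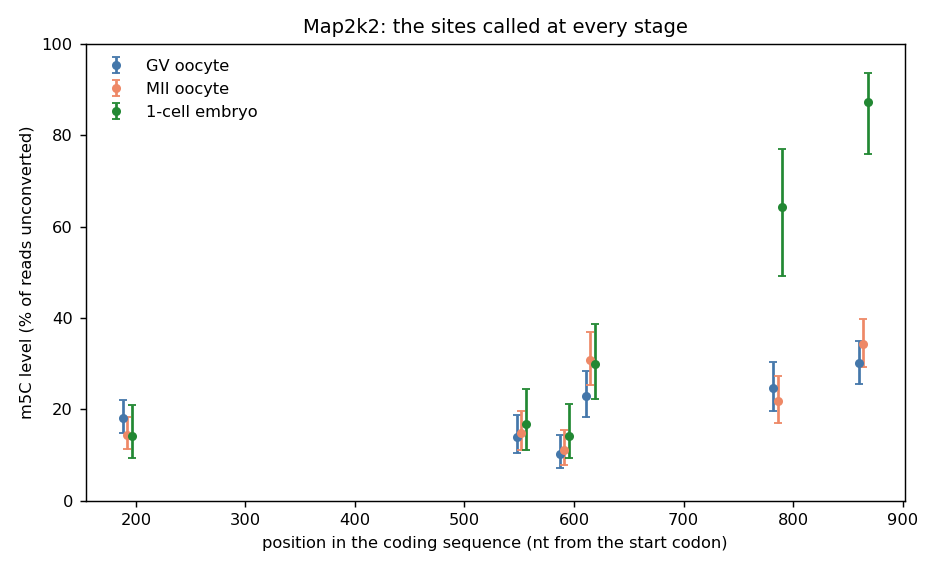
m5C level in percent (vertical axis) with Wilson 95% intervals of counting error at the 6 Map2k2 sites called at every stage, by position in the coding sequence (horizontal axis, nt), coloured by stage. The embryo points of the last 2 sites, at 64.3% and 87.3%, stand above their oocyte points, while the intervals of the first 4 sites overlap between stages.

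Map2k1 (MEK1) had its deepest site in CDS, of 28.7% in 1641 reads, 28.7% in 1793 reads and 34.3% in 766 reads. The change at the second step was 5.61 points (exact adjusted p = 0.0126). In its 5′ UTR 1 site rose from 44.6% and 48.3% to 62.7% in 408 reads (exact adjusted p = 1.33e-05), and another from 11.1% and 13.4% to 36.9% in 225 reads (exact adjusted p = 5.11e-10). Neither was called changed between the oocyte stages, nor was any of the 13 shared Map2k sites. Against the 19.6% called higher over all genes at this step, 13 sites are again too few for a comparison. Map2k4, an activator of JNK and p38, had a 3′ UTR site of 16.8%, 22.9% and 55.6% in 214, 188 and 90 reads (exact adjusted p = 9.3e-07 at the second step).

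At the level of the MAP kinases, Mapk3 (ERK1) had 1 site in each oocyte list and 8 in the embryo list. The CDS site shown above was at 14.4% in 1780 reads in GV oocytes, 18.5% in 1609 reads in MII oocytes and 30.4% in 473 reads in embryos, and rose at both steps (exact adjusted p = 0.0101 and 4.43e-07). Mapk6 (ERK3) went from 0 and 1 sites to 8. Its 5′ UTR site shared by MII oocyte and embryo was at 11.5% in 654 reads and 18% in 205 reads (exact adjusted p = 0.0344).

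Among the partner proteins of the cascades, Mapkap1 (SIN1, a subunit of mTOR complex 2) had 2 CDS sites that rose at both steps. The first had 23.8% in 563 reads, 36.2% in 611 reads and 60.6% in 188 reads (exact adjusted p = 8.99e-05 and 3.41e-08), and the second 12.4% in 524 reads, 24.8% in 432 reads and 44.4% in 153 reads (exact adjusted p = 2.03e-05 and 3.85e-05). A 3′ UTR site of the same gene rose from 13.4% in 157 reads to 36% in 189 reads between the oocyte stages (exact adjusted p = 2.93e-05). Mapkbp1, a scaffold that binds JNK, had 6, 12 and 8 sites, yet none was called at every stage. Its site at position 120022778 of chromosome 2 rose from 50% in 116 reads to 78.6% in 84 reads (exact adjusted p = 0.00053). Of its Type II sites shown above, the first rose from 43.2% in 220 reads to 63.4% in 153 reads (exact adjusted p = 0.00169) and the second had 58.4% in 149 reads and 64.5% in 110 reads, with no call. The wider of both called falls from GV to MII oocytes was in the 3′ UTR of Mapk1ip1l, from 89.5% (81.3 to 94.4) in 86 reads to 54.5% (44.2 to 64.5) in 88 reads (exact adjusted p = 6.89e-06). Before that fall it was the GV family site of highest level with at least 50 reads, and it was not called in embryos.

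The Pik3 genes had 92 distinct sites, 16 of them called at every stage, and the Akt genes 39, 9 of them called at every stage. Pik3cd was deeply covered in oocytes, with 576 to 2265 reads at its 6 sites of each oocyte list. Its CDS site shown above was at 57.7% (55.6 to 59.8) in 2134 reads in GV oocytes, 75.8% (73.8 to 77.6) in 1906 reads in MII oocytes and 78.9% (73.3 to 83.6) in 237 reads in embryos. The first step was called (18.1 points, exact adjusted p = 3.32e-31) and the second was not (exact adjusted p = 0.429). A pair of 3′ UTR sites 18 bases apart behaved otherwise. One went from 17.2% and 26% to 66.2% in 71 reads and the other from 17.0% and 32.5% to 51.2% in 80 reads, with calls at both steps. All 5 Pik3cd sites called at every stage were called higher from GV to MII oocytes. Over all genes 19.6% of the sites shared at this step were called higher, at median coverages of 151 and 126 reads, far below those of Pik3cd. With reads divided by 5, the CDS site shown above was the only Pik3cd site that kept its call at this step.

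Pik3c2a, a class II kinase, held, at 1 site, the largest called rise between the oocyte stages and the larger of the 2 called falls after it. That CDS site, at position 116342979 of chromosome 7, had 32.8% (25.5 to 41.2) in 134 reads, 72.6% (64.9 to 79.2) in 146 reads and 43.9% (29.9 to 59.0) in 41 reads (exact adjusted p = 1.75e-09 and 0.0033). The GV and embryo values did not differ by the test (exact adjusted p = 0.25). Both calls rest on the MII library. Pik3c2b, its relative, rose at a CDS site from 23.7% in 300 reads to 40% in 260 reads and 62.0% in 108 reads, with calls at both steps (exact adjusted p = 0.000541 and 0.000481). Among the catalytic subunits, Pik3ca had 1, 3 and 1 sites, and its shared oocyte site rose from 10.4% in 96 reads to 29.6% in 81 reads (exact adjusted p = 0.0136). Pik3c3 (VPS34, the class III kinase of endosomes and autophagy) had 1, 2 and 3 sites. Its site shared by both oocyte stages had 17.6% in 153 reads and 31.0% in 113 reads, which did not pass (exact adjusted p = 0.0591). Pik3r4, its regulatory partner, had 4, 5 and 13 sites, and a CDS site of 17.1% in 850 reads, 19.0% in 574 reads and 55.6% in 135 reads rose at the second step (exact adjusted p = 5.9e-15).

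Akt1 held the 1 family site called lower from GV oocyte to embryo. Its level was 43.1% (39.6 to 46.6) in 780 reads in GV oocytes, 33.3% (29.1 to 37.9) in 432 reads in MII oocytes and 22.1% (14.6 to 31.9) in 86 reads in embryos. The intervals of the 3 stages overlap between MII oocyte and embryo only. The first step was called (exact adjusted p = 0.00776), the second was not (exact adjusted p = 0.0749), and the whole change was (exact adjusted p = 0.000288). In the 5′ UTR of the same gene a site went the other way, from 10.0% and 10.4% to 28.3% in 53 reads (exact adjusted p = 0.00746 at the second step). Akt2 had 4 sites called at every stage and all 4 were called higher from MII oocyte to embryo, against 51.3% of shared sites over all genes. A 5′ UTR site reached 100% in 39 reads from 48.0% in 200 reads and 59.7% in 243 reads (exact adjusted p = 1.47e-07), and a CDS site of exon 12 had 13.1% in 314 reads, 20.0% in 295 reads and 44.2% in 129 reads (exact adjusted p = 2.99e-06). Akt1s1 (PRAS40, an Akt substrate and mTOR inhibitor) had 3 high 3′ UTR sites within 200 bases. They stood at 57.5%, 62.2% and 56.4% in GV oocytes, 63.8%, 67.5% and 67.1% in MII oocytes and 92.1%, 73.3% and 82.8% in embryos, in 99 to 468 reads. The first and last were called higher at the second step (exact adjusted p = 2.43e-13 and 0.00517) and the middle one was not (exact adjusted p = 0.233).

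The ribosomal S6 kinases, which act downstream of the MAP kinases (Rps6ka genes) or of mTOR (Rps6kb genes), had few and thinly covered sites. Rps6ka1 had the most, 3, 3 and 2, and its site called at every stage had 15.9%, 29.7% and 20.5% in 69, 37 and 39 reads, with no call. Rps6kb1 had 11.6% in 190 reads and 13.7% in 95 reads in oocytes. In the 3′ UTR of Rps6ka3 the level was 15% in 80 MII reads and 71.4% (50 to 86.2) in 21 embryo reads (exact adjusted p = 6.95e-06). Rps6kb2 had sites in MII oocytes alone, with a Type II site of 59.0% in 139 reads. Rps6ka6 had 2 sites in each of the MII oocyte and embryo lists, of 11.9% to 44.1%.

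Of the cyclic AMP and AMP-activated kinase subunits, the regulatory subunit gene Prkar1a held the widest change of the 6 Prka sites called at every stage. It was at 24.2% (20.5 to 28.4) in 446 reads, 25.3% (21.6 to 29.5) in 462 reads and 69.8% (60.9 to 77.4) in 116 reads, so that the oocyte values overlap and the embryo value stands above both (exact adjusted p = 1.12e-16 for the second step). The catalytic subunit gene Prkaca had a CDS site of 27.4% in 186 reads, 27.9% in 165 reads and 29.2% in 48 reads. The embryo interval, 18.2% to 43.2%, leaves room for a change of several points that this depth could not show. Prkar2a went from 1 and 2 sites to 9, of which 6 of its 10 distinct sites were in the 3′ UTR, and the one at position 108749099 of chromosome 9 rose from 15% in 234 MII reads to 58.1% in 62 embryo reads (exact adjusted p = 4.63e-10). Prkab1, the beta subunit of AMP-activated kinase, changed less. Its first-exon CDS site had 36.3% in 526 reads, 37.8% in 500 reads and 47.9% in 405 reads (exact adjusted p = 0.00581 at the second step). The gamma subunit gene Prkag1 had a single site, in the 3′ UTR, of 16.9%, 14.4% and 35.6% in 201, 208 and 118 reads (exact adjusted p = 6.15e-05).

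Protein kinase C genes were nearly without sites. Prkci had 1 embryo site of 12.8% in 117 reads and Prkcd 1 embryo site of 58.1% in 31 reads. Prkcsh, the glucosidase subunit, had both of its oocyte sites called in GV and MII oocytes with little difference, 20.0% and 17.2% at one and 34.8% and 32.4% at the other. Among the calcium-dependent genes Camk2g, the main calmodulin kinase II of the oocyte, had 2, 2 and 5 sites. Its CDS site of exon 1 rose from 12.7% in 900 reads and 17.0% in 855 reads to 29.8% in 181 reads (exact adjusted p = 0.000538 at the second step). Its 3′ UTR site went from 17.6% in 850 reads and 15.7% in 816 reads to 13.0% in 162 reads, with no call. Camkmt had 13.5%, 20.8% and 40.8% in 126, 120 and 71 reads (exact adjusted p = 0.0103 at the second step), and Camk1d 4 sites, all in the 3′ UTR, none shared between stages.

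The casein kinases, constitutively active kinases of Wnt and clock signalling among others, had 20, 26 and 28 sites. Csnk1e had the most, and its 3′ UTR site went from 25.9% in 704 reads to 39.8% in 545 reads and 77.8% in 63 reads, called at both steps (exact adjusted p = 5.64e-06 and 8.82e-08). A pair of neighbouring cytosines of the same gene, 1 base apart in CDS, lay between 15.4% and 22.1% in 232 to 1298 reads at all stages. The one called first in position passed from GV to MII oocytes (exact adjusted p = 0.0462) and the other in no pair. In Csnk1a1 a 5′ UTR site rose from 41.0% in 1078 reads to 47.4% in 1136 reads and 68.0% in 515 reads (exact adjusted p = 0.0163 and 2.02e-13). Another 5′ UTR site of that gene was 1 of the 2 family sites called lower from MII oocyte to embryo, with 23.6% in 636 reads, 27% in 625 reads and 20.2% in 525 reads (exact adjusted p = 0.015 for the second step). The widest called rise from GV oocyte to embryo among sites with at least 50 reads at both was in the 5′ UTR of Csnk1g2, from 10.1% (6.70 to 14.9) in 208 reads to 75.4% (63.7 to 84.2) in 65 reads (exact adjusted p = 3.19e-22), and it was not called in MII oocytes. Csnk1d had an oocyte CDS site of 16.4% in 183 reads and 16.5% in 158 reads. The 3′ UTR site of Csnk2a1, a catalytic subunit of casein kinase 2, had 23.7%, 27.5% and 40.6% in 266, 251 and 64 reads, and passed from GV oocyte to embryo alone (exact adjusted p = 0.0131).

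The Dyrk kinases, which phosphorylate priming sites for other kinases, shared no site between all 3 stages. Dyrk1a had 4, 4 and 12 sites and Dyrk1b 4, 4 and 0. The deepest Dyrk1a site had 12.7% in 1375 MII reads and 14.7% in 251 embryo reads, with no call. A 3′ UTR site of Dyrk1a rose between the oocyte stages, from 24.7% in 73 reads to 59.5% in 37 reads (exact adjusted p = 0.0059).

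Among the Stk genes, which share a name and not a pathway, 11 of 22 shared sites were called higher from GV to MII oocytes and none lower. Over all genes the shares were 19.6% and 0.965%. The Pik3 genes had a like count at this step, with 11 of 23 called higher and none lower. With reads divided by 5 no Stk call of this step was left, and the family shares were not tested. Both Stk32c sites rose at each step. The first had 22.9% in 536 reads, 45.7% in 512 reads and 58.8% in 274 reads (exact adjusted p = 7.84e-13 and 0.00164), and the second 18.7% in 470 reads, 40.8% in 385 reads and 67.8% in 236 reads (exact adjusted p = 1.47e-10 and 6.42e-10). At neither site do the intervals of GV and MII oocytes overlap. Stk36 (fused) had 3, 5 and 14 sites, and its site in exon 23 rose from 21.1% in 924 reads to 33.2% in 639 reads and 48.9% in 174 reads (exact adjusted p = 3.9e-06 and 0.000604). Stk35 had 5 sites called at every stage, of which the 3′ UTR site at position 129830989 of chromosome 2 rose from 32.8% in 676 reads to 42.4% in 630 reads and 72.4% in 134 reads (exact adjusted p = 0.00387 and 3.18e-09). Its Type II site, in the same region, was at 11.0%, 12.8% and 10.4% in 1091, 903 and 299 reads. Stk24 (MST3) had 2 CDS sites that rose at the second step alone, from 29.6% and 28.0% to 53.3% in 107 reads (exact adjusted p = 2.95e-06) and from 12.6% and 14.8% to 32.8% in 348 reads (exact adjusted p = 1.13e-10). Stk25 rose from 14.1% in 714 reads to 21.2% in 452 reads (exact adjusted p = 0.0155) and had 23.5% in 119 reads in embryos. Stk11 (LKB1, the kinase that activates AMP-activated and MARK kinases) had 2, 4 and 9 sites. Its 5′ UTR site rose from 11.5% in 174 reads and 14.3% in 223 reads to 40% in 55 reads (exact adjusted p = 0.000289), and its CDS site of exon 5 was at 10.8%, 10.9% and 12.9% in 223, 257 and 93 reads.

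The Mark kinases regulate microtubules and cell polarity. The Mark2 3′ UTR site shown above held the highest embryo level of any family site with at least 50 reads. It was at 68.0% (65.5 to 70.4) in 1399 reads, 81.4% (79.3 to 83.3) in 1466 reads and 97.5% (95.5 to 98.7) in 404 reads, 3 intervals that do not overlap (exact adjusted p = 2.22e-14 and 3.1e-18). The MII value too was the highest of its stage at that depth. The Type II site of Mark2 rose from 27.9% in 1515 reads to 33.6% in 1499 reads (exact adjusted p = 0.00765) and had 33.1% in 166 embryo reads. Mark4 had 6, 9 and 12 sites, of which 17 of 18 distinct ones were in CDS. Its exon 10 site was at 25.5%, 27.1% and 26.3% in 302, 262 and 57 reads, while that of exon 13 passed from GV oocyte to embryo, with 22.9% in 288 reads and 38.6% in 101 reads (exact adjusted p = 0.00508). Mark3 had 3, 3 and 1 sites, none called at every stage.

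Among the members not named so far, Mapk14 (p38 alpha) had 3, 4 and 6 sites, 10 distinct ones in all. Its 3′ UTR site called at every stage had 18.5%, 18.4% and 28.6% in 27, 38 and 28 reads. Mapk9 (JNK2) had 4, 3 and 1 sites, all of its shared ones in the 3′ UTR and without a call. Csnk2a2, the other catalytic subunit of casein kinase 2, rose in its 5′ UTR from 32.6% in 304 reads to 44.2% in 276 reads (exact adjusted p = 0.0277) and had 48.0% in 25 embryo reads. Map4k1 and Map4k2 had 3 sites each in GV oocytes, and 4 and 5 in MII oocytes, with up to 91 reads there and no call. Map2k7, Map3k1, Map3k6, Map3k9, Map3k15, Mapk13, Mapk1ip1, Pik3ip1, Pik3r2, Pik3r3, Camkk2, Rps6kc1, Stk10, Stk32b, Stk38 and Stk38l had 1 to 5 distinct sites each, and none was called at every stage.

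In 9 pairs, in 9 genes, both of 2 neighbouring cytosines were called. Their levels differed widely within the same reads' reach in some pairs and little in others. The Csnk1e pair had 22.1% and 21.6% in embryos, in 235 and 232 reads. In Map4k4 the pair had 20.9% and 48.1% in GV oocytes (320 and 322 reads) and 20.6% and 51.9% in MII oocytes (228 and 233 reads). The exon 14 pair of Akt2 had 25% and 90.6% in embryos, in 32 reads each. These pairs were named after their values were seen.

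Genes that act beside these kinases were looked up in 5 lists, chosen with earlier results known. Of 16 MAPK regulators 13 had a site, and of their shared sites 5 of 19 were called higher from GV to MII oocytes and 10 of 20 from MII oocytes to embryos, with 0 and 1 called lower. Mos, the oocyte activator of Map2k1, had 1 CDS site in MII oocytes, of 10.9% in 1699 reads, and another in embryos. Of 18 genes of phosphoinositide and mTOR signalling, 16 had a site, with 6 of 35 and 10 of 22 called higher and 1 and 0 lower. Of 12 cyclic AMP genes 10 had a site, with 7 of 31 and 10 of 16 called higher and 1 and 0 lower. They include the receptor gene Gpr3, which keeps cyclic AMP high in the GV oocyte, with a CDS site of 22.9% in 485 reads, 40.9% in 438 reads and 81.7% in 175 reads, and the phosphodiesterase gene Pde3a, with a CDS site of 54.5% in 657 reads, 69.5% in 630 reads and 100% in 83 reads. Neither gene was fixed in advance as one to show, and not every site rose at each step. A CDS site of Gnas had 18.1% in 2595 reads, 13.0% in 2409 reads and 41.7% in 520 reads. Of the 11 calcium names looked up (Emi2 is an older name of Fbxo43) 7 had a site, with 1 of 15 and 3 of 5 called higher and none lower. All 4 partners of Stk11 had a site, with 1 of 7 and 1 of 5 called higher and 0 and 1 lower. The shares of all genes for these steps are the 19.6% and 51.3% above.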

How the data were processed

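m5C was measured by RNA bisulfite sequencing in 1 library per stage. Per the submitters' processing notes, the authors trimmed reads with cutadapt 1.13 and Trimmomatic 0.36 and aligned them with HISAT2 2.10 and Bowtie2 2.2.9, while the study's own software list gives other versions of cutadapt and HISAT2. Per the labels and methods, they used GRCm38 and kept bases of quality 30 or more and reads within a limit of 3 unconverted C. The labels name polyA RNA where the methods name rRNA-depleted RNA. The deposited lists give, per called site, the coverage as a count of reads, the m5C level as a fraction and a p-value from the authors' caller. The p-value was not used. Unconverted reads were recovered as level times coverage, which deviated from whole numbers by at most 2.9e-05.

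Sites shared by 2 lists were compared by two-sided Fisher's exact test, adjusted by Benjamini-Hochberg over all shared sites of the pair (threshold 0.05). The procedure was run on simulated reads drawn independently of each other. PCR copies and differences between libraries were not simulated, so that run does not cover their effect on the calls. Intervals are Wilson for levels and shares, exact Poisson for site counts and from order statistics for medians, and cover counting error only, since PCR reads without molecular identifiers are not independent molecules. Regions, exons and sequences came from GENCODE M21. All 595 family sites were C on their strand, and 93 of 94 symbols matched. Map2k7 has 2 sites whose identifier has another name there. Zak and BC021891, other names of Map3k family genes, were not matched by the name rule. Python 3.11.15, pandas 2.3.3, scipy 1.17.1, pysam 0.24.0 and matplotlib 3.10.9 were used.

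The members and gene lists were chosen with earlier results of these data known. Named genes are the 3 with most sites in each family group, sites called at every stage with at least 50 reads, the 5 largest called rises and falls per pair with at least 50 reads, the highest site per stage, and 20 fixed genes. Others, such as Map3k5, Map4k4, Mapk6, Mapk8ip3, Pik3cb, Stk4 and Mapk14, were named after their values were seen, to account for members. Alternatives were higher coverage or level minimums, reads divided by 5, Bonferroni adjustment, CUCCA alone as Type II, another transcript choice and centred coverage. Some results of member genes are not reported here.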

Additional observations from a re-analysis of the deposited data

How the results depend on the processing

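Requiring at least 50 reads left 258 embryo sites with a median level of 18.1%. Requiring 100 reads left 131, 165 and 147 sites in GV oocytes, MII oocytes and embryos, with 40 genes and a median of 16.4% in embryos. Requiring a level of 20% left 105, 145 and 223 sites, with medians of 32.6%, 32.3% and 31.4%, by construction. Of the family sites called higher from GV to MII oocytes, MII oocytes to embryos and GV oocytes to embryos, 23, 37 and 31 were called with levels of at least 20% at both stages. With reads divided by 5 they numbered 2, 11 and 30, and with Bonferroni adjustment 15, 30 and 42. Over all genes, 90 of 12954, 593 of 8015 and 1373 of 6478 shared sites were called with reads divided by 5, in either direction. The calls under the other settings were not counted over all genes, so a loss particular to the families cannot be read from them. Of the family sites called lower, 0 were left in any pair with reads divided by 5, and 1, 0 and 0 with Bonferroni adjustment. The fall from MII oocytes to embryos was called at 1 site with at least 50 reads at both stages. With the median of all shared sites set to 0, the log2 coverage ratios were 0.0355, -0.0443 and -0.0474, so that the first changed sign. Of the named changes, 8 kept their call and 11 lost it with reads divided by 5, and 15 kept it and 4 lost it with Bonferroni adjustment. CUCCA alone and the transcript with the longest coding sequence moved no value beyond its interval. No paired analysis was possible because each stage has 1 library, which also allows no replicate to be left out. Depth limits the embryo values most, where 35.0% of sites had under 50 reads.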
